A study of Homo sapiens with 36 samples.

Results

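The 5 miRNAs described here lie on chromosome 5, outside its larger miRNA families. They are hsa-miR-1271-5p, hsa-miR-584-5p, hsa-miR-340-5p, hsa-miR-2277-5p and hsa-miR-581. They were chosen by name, and all 5 were found among the 509 miRNA names of the series, of which 18 were placed on chromosome 5 alone. The study asked how miRNA levels respond when human cells carry extra chromosomes, and compared 7 aneuploid lines with near-diploid parental cells in 36 libraries of 3 per group. HCT116 is a colon carcinoma line with a modal chromosome number given as 45, and RPE1 is a retinal pigment epithelium line immortalised with hTERT with a modal number given as 46. An asterisk marks cells that stably express the histone H2B tagged with GFP.

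Chromosome 5 was gained in 2 of the 7 lines. HCT116 5/4 carried 4 copies of chromosome 5 and was set against HCT116 without H2B-GFP. RPE1 5/3 12/3 carried 3 copies of chromosome 5 and 3 of chromosome 12, the latter gained spontaneously, and was set against RPE1 without H2B-GFP. The other 5 lines each had 3 copies of another chromosome. HCT116* 8/3 c7 had an extra chromosome 8, HCT116* 3/3 c11 an extra chromosome 3 and HCT116 18/3 c2 an extra chromosome 18. RPE1* 21/3 had an extra chromosome 21, and RPE1* 7/3 an extra chromosome 7 and spontaneous gains of chromosomes 9 and 12. The labels name the same 3 HCT116* libraries as the control of all 3 HCT116 lines among these 5. For HCT116 18/3 c2, which itself lacked H2B-GFP, the study elsewhere groups the line with HCT116 without H2B-GFP. Each of the RPE1* lines had its own set of 3 RPE1* libraries. The study's list of lines gives another laboratory as the source of both HCT116 5/4 and its HCT116 control. The suffix c names a clone grown from a single cell, so that such a line represents 1 clone.

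The value available for each miRNA in each line was a mean normalised read count over 6 libraries, the 3 of the line and the 3 of its control together. Such a mean gives the level of a miRNA in the pool of a line and its parent. It does not say which of them carried the level, and it has no error. The authors' own test of each line against its control was not used here, no replicate test was made from the means, and the comparisons below are between tables. Both tables with a chromosome 5 gain held controls without H2B-GFP and by the labels all 5 others held controls with it. The gain and the parental control set, in HCT116 also its source, can therefore not be told apart. To account for sequencing batch, the study paired replicates in both tables with the gain. Among the other tables it did so in a single one, and in none of HCT116. The part of batch in the comparisons between tables was not tested.

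A miRNA is cut from a hairpin in a longer transcript, loaded into an Argonaute protein and directs it to messenger RNAs, whose translation and stability it lowers. Bases 2 to 8 from its 5′ end, the seed, pair with the target, so miRNAs with the same seed share many predicted targets. A hairpin that lies in an intron of a protein-coding gene can be released while the host transcript is spliced, in which case the copy number and promoter of the host gene bear on the miRNA. The sequences show which of the 5 could act on shared targets. Each is printed 5′ to 3′, from RefSeq (table built on GRCh38.p14), with the seed in capitals.

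hsa-miR-1271-5p: cUUGGCACcuagcaagcacuca
hsa-miR-584-5p: uUAUGGUUugccugggacugag
hsa-miR-340-5p: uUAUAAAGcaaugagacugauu
hsa-miR-2277-5p: aGCGCGGGcugagcgcugccaguc
hsa-miR-581: uCUUGUGUucucuagaucagu
hsa-miR-96-5p: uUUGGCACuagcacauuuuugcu

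The 5 seeds all differed from one another. That of miR-1271-5p, UUGGCAC, was shared with 1 other listed miRNA, hsa-miR-96-5p, which is shown for this reason. Compared position by position from their 5′ ends without gaps, the pair had the same base at 9 of 22 positions, and at 2 of the 14 positions after base 8. The stretch uagca follows the seed in both, in miR-1271-5p after an extra c, and a count without gaps misses it. The other 4 members shared a seed with no other mature miRNA of the RefSeq table. Base composition differed widely, from 27.3% G and C in miR-340-5p to 75% in miR-2277-5p. No 3p arm of MIR1271, MIR584, MIR340 or MIR2277 was listed in any table, and RefSeq gave no other arm for MIR581. The tables listed few 3p names for any miRNA, so this absence says nothing about the level of these arms.

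The 5 loci were spread along chromosome 5 of GRCh37 (hg19), the build the authors used, and each lay on the strand of the gene around it. MIR1271 is on the plus strand at chr5:175794949-175795034, in intron 2 of 3 of ARL10, an ADP-ribosylation factor-like GTPase gene. MIR584 is on the minus strand at chr5:148441876-148441972, in intron 1 of 16 of SH3TC2, a gene mutated in a form of hereditary neuropathy, and starts 754 bases from the 5′ end of that gene. MIR340 is on the minus strand at chr5:179442303-179442397, in intron 2 of 8 of RNF130, which encodes a RING finger protein. MIR581 is on the minus strand at chr5:53247334-53247429, in intron 4 of 4 of ARL15, another GTPase gene, within an intron of 226488 bases. MIR2277 is on the minus strand at chr5:92956402-92956494 and was not intronic in the canonical transcript of FAM172A: it overlapped exon 11 of 11, in the 3′ UTR. These tables hold miRNAs only, so the level of the 5 host genes was not analysed here.

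The 5 did not form a cluster. The closest pair of members was MIR1271 and MIR340, 3647 kb apart near the end of the long arm, and each was the nearest to the other among the listed miRNAs that were placed on chromosome 5 alone. For miR-584-5p the nearest of these loci was that of miR-143-5p, at 366.5 kb. For miR-581 it was that of miR-449a, at 1219 kb.

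Some facts of the tables bear on all values. The tables listed 273 to 434 miRNAs, and 205 were listed in all 7. The lowest listed mean was 11.9 in the HCT116* 3/3 c11 table and 1.10 in the RPE1* 7/3 table, so a miRNA that is not listed may have been present below such a limit. Summed means ran from 5556870 in the HCT116 5/4 table to 11221232 in the RPE1* 7/3 table, and the depth of single libraries is unknown. All 7 colorectal epithelial marker miRNAs were listed in HCT116 tables, at a summed 2018 to 3155 per 1000000 of the summed mean. In RPE1, 4 were listed, at 192 to 251. MiR-200a-5p was the largest part of the HCT116 sums, and miR-200b-5p, miR-200c-5p and miR-141-5p were not listed in RPE1. MiR-192-5p, miR-194-5p and miR-215 had ranges that overlapped between the backgrounds. The means of miR-194-5p and miR-215 were 223.2 and 72.6 in the RPE1 5/3 12/3 table. In HCT116 they were 773.9 and 132.1 in the HCT116 5/4 table, and 130.0 to 167.6 and 45.4 to 66.8 in the others. The 2 pigment epithelial markers, miR-204-5p and miR-211-5p, summed to 380 to 1452 per 1000000 in RPE1 tables and to 3.3 to 4.5 in HCT116 tables. Of 4 blood cell markers, miR-142-5p was listed in HCT116 tables, at 1.90 to 38.6 per 1000000, highest in the HCT116 5/4 table, and none was listed in RPE1 tables; the part of this in the results was not tested.

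MiR-1271-5p was the member with the clearest pattern. In HCT116 its mean normalised count was 154.1 in the HCT116 5/4 table, 3.28 in the HCT116 18/3 c2 table and 2.88 in the HCT116* 8/3 c7 table, and it was not listed in the HCT116* 3/3 c11 table. In RPE1 it was 80.1 in the RPE1 5/3 12/3 table and 6.89 in the RPE1* 21/3 table, and it was not listed in the RPE1* 7/3 table. In both backgrounds the table of the line with extra chromosome 5 and its control thus held the highest mean. In the HCT116 5/4 table miR-1271-5p ranked 122 of 358 listed miRNAs, against 387 of 409 and 406 of 434 in the HCT116 18/3 c2 and HCT116* 8/3 c7 tables. Its rank in the RPE1 5/3 12/3 table was 152 of 297, against 248 of 273 in the RPE1* 21/3 table.

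MiR-584-5p was abundant, mostly in HCT116. Its mean was 5516 in the HCT116 5/4 table, 4359 in the HCT116 18/3 c2 table, 6851 in the HCT116* 3/3 c11 table and 4598 in the HCT116* 8/3 c7 table. In RPE1 it was 835.0 in the RPE1 5/3 12/3 table, 2510 in the RPE1* 7/3 table and 624.5 in the RPE1* 21/3 table. The HCT116 values did not overlap those of RPE1, though how often this held over all miRNAs was not counted. Within RPE1 the RPE1* 7/3 table stood above the rest.

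MiR-340-5p was the most abundant of the 5 in every table. In HCT116 its mean was 7902, 7719, 8346 and 8683 in the HCT116 5/4, HCT116 18/3 c2, HCT116* 3/3 c11 and HCT116* 8/3 c7 tables. In RPE1 it was 5271, 3628 and 4903 in the RPE1 5/3 12/3, RPE1* 7/3 and RPE1* 21/3 tables. As deposited, the HCT116 5/4 table was not at the upper end of the HCT116 values.

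MiR-2277-5p, the miRNA from the exon of FAM172A, was scarce. Its mean was 40.5, 38.6, 43.0 and 39.2 in the same order of HCT116 tables, and 21.9, 13.2 and 20.3 in the same order of RPE1 tables. MiR-581 was scarce too, but lower in the table with the gain: its mean was 17.6 in the HCT116 5/4 table and 42.9, 46.7 and 50.3 in the 3 other HCT116 tables. In RPE1 miR-581 had a mean of 6.20 in the RPE1 5/3 12/3 table and 8.64 in the RPE1* 7/3 table, and was not listed in the RPE1* 21/3 table.

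**Figure D1:**
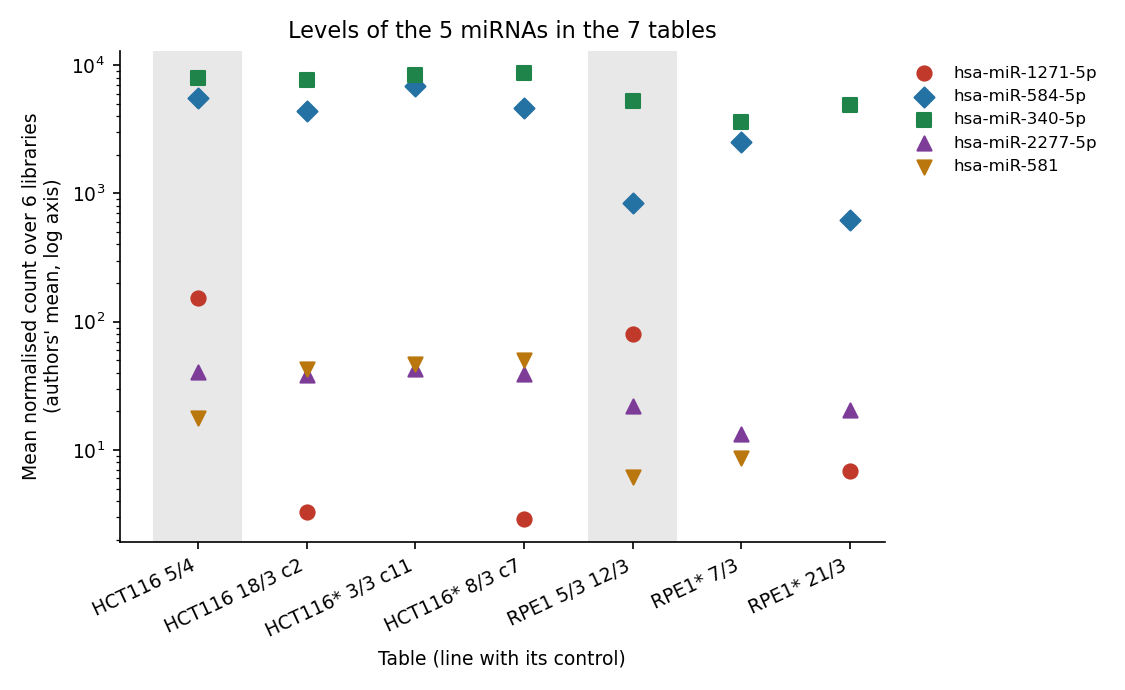
Mean normalised count over 6 libraries (log axis) of the 5 miRNAs in each of the 7 tables, named by the aneuploid line, each point being the authors' mean of a line and its control with no error available. Grey bands mark the 2 tables with a chromosome 5 gain, where miR-1271-5p reached 154.1 and 80.1 against 2.88 to 6.89 in the other tables that list it.

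To compare the tables, which the authors normalised separately, the means were rescaled within each parental background by the median of ratios over the miRNAs listed in all its tables, 271 in HCT116 and 262 in RPE1. The scaled mean in the table of the gaining line was then set over the geometric mean of the tables without the gain, as a log2 ratio, for miRNAs with a scaled mean of at least 10 on average over the tables. A ratio past 0.6 in either direction was counted. Suppose miRNA level followed copy number and the controls were alike. The log2 ratio of a line to its control would then be 1 for 4 copies and 0.58 for 3. That of the table, which pools line and control, would be 0.58 and 0.32. Both lie inside the limit of 0.6, so following copy number would not by itself take a miRNA past it.

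The HCT116 5/4 table differed from its comparators in many miRNAs. Of 290 miRNAs, 185 lay past the limit, which is 63.8%, with 107 higher (36.9%) and 78 lower (26.9%). This split depended on scaling: with no scaling 49 were higher and 151 lower, and 83 were higher and 102 lower with scaling over all 7. No scaling shifted the median ratio of all miRNAs by -0.69 and scaling over all 7 tables by -0.23, so each value below is also given relative to that median. Of 244 miRNAs in the RPE1 5/3 12/3 table, 104 were past the limit, 42.6%, with 50 higher (20.5%) and 54 lower (22.1%). Without RPE1* 7/3 among the comparators, 66 of 238 were.

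The scaled mean of miR-1271-5p in the HCT116 5/4 table was 223.5 against 2.91, a log2 ratio of 6.26 or 76.9-fold. Only 2 of the 3 comparator tables listed it, at scaled means of 2.58 and 3.28. The log2 ratio in the RPE1 5/3 12/3 table was 3.45, a scaled mean of 80.5 against 7.35, or 10.96-fold, and the RPE1* 21/3 table was the only comparator that listed it. It reached an average of 10 in both backgrounds only through the table with the gain, so its place among the 290 and 244 is no support for the difference. With no filter on the mean, 0 of the 350 and 0 of the 293 miRNAs with a ratio were above it, a description chosen after its values were seen. The 8 and 4 miRNAs that no comparator table listed have no ratio. Copy number would give 0.58 and 0.32.

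The pooled means still bound the level in single groups. With 3 libraries on each side, the average of a group is at most 2 times the table mean, and at least 1 group of a table reaches its mean. At least 1 of HCT116 and HCT116 5/4 therefore averaged at least 34.1-fold more miR-1271-5p than any group of the HCT116 18/3 c2 and HCT116* 8/3 c7 tables in the scaling used here, and at least 23.5-fold more on the means as deposited, the lowest of 4 scalings. Likewise, at least 1 of RPE1 and RPE1 5/3 12/3 averaged at least 5.48-fold more than either group of the RPE1* 21/3 table, and at least 5.04-fold more with scaling over all 7, the lowest of 4 scalings. Which of the parent and the gaining line this was cannot be told from the means.

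For miR-584-5p, miR-340-5p and miR-2277-5p the ratios in the HCT116 5/4 table were small. They were 0.79, 0.63 and 0.70, each above the range of all 3 comparator tables, and with no scaling, which moves all miRNAs alike, they were 0.10, -0.060 and 0.011. Relative to the median of all miRNAs they were 0.75, 0.59 and 0.66 under each scaling to these digits. Copy number would give 0.58 in this table, and whether the 3 miRNAs followed it was not tested. The shares of miRNAs with a lower ratio were 70.0%, 64.5% and 67.2%, so each lay within the upper part of the common range. Of the miRNAs listed in all 4 tables, 114 of 268 (42.5%) were likewise above all 3 comparators.

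MiR-581 went the other way. Its log2 ratio in the HCT116 5/4 table was -0.71, a scaled mean of 25.5 against 37.7 to 45.1 in the comparators, and 21.7% of miRNAs had a lower ratio. It was below the range of the comparators under each scaling, as 115 of 268 miRNAs (42.9%) were in the scaling used here. The shares of all miRNAs past the limit, 36.9% upwards and 26.9% downwards, leave these 4 small ratios near what the table showed in general.

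MiR-340-5p and miR-2277-5p were inside the limit in the RPE1 5/3 12/3 table, as is the 0.32 that copy number would give. MiR-340-5p had a log2 ratio of 0.34, a scaled mean of 5299 against 3337 in the RPE1* 7/3 table and 5226 in the RPE1* 21/3 table. MiR-2277-5p had 0.44, with a scaled mean of 22.0 against 12.2 and 21.7. Both lay close to the RPE1* 21/3 table. Without the RPE1* 7/3 table their ratios were 0.020 and 0.022, and without the RPE1* 21/3 table they were 0.67 and 0.85, past the limit. Being above both comparators was the case for 61 of 236 miRNAs, 25.8%.

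For miR-584-5p the RPE1 ratio was -0.56, within the range of the comparators, whose scaled means were 666 and 2309. It rested on the RPE1* 7/3 table, without which it turned to 0.33, and it was -1.46 without the RPE1* 21/3 table. MiR-581 had a ratio of -0.35 with 1 comparator and did not reach the mean of 10, so it was not counted among the 244.

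**Figure D2:**
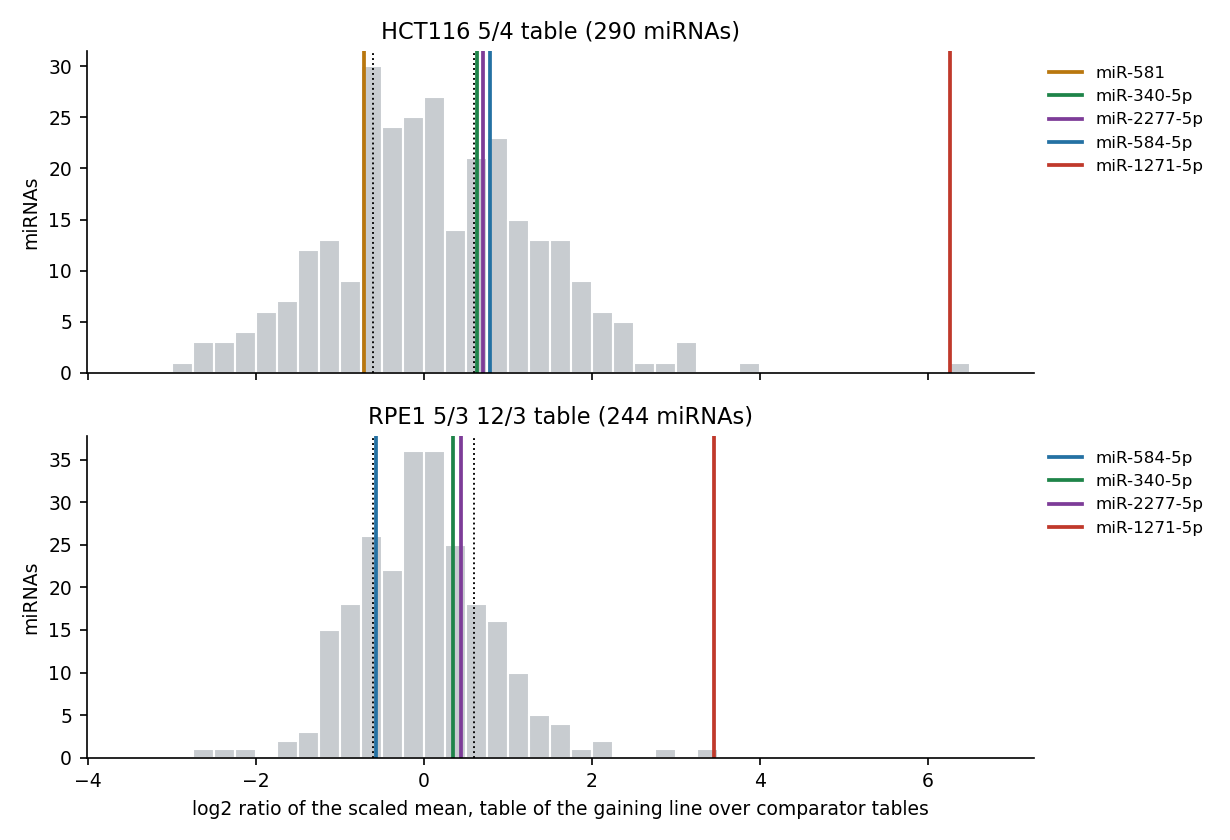
Histogram of the log2 ratio of the scaled mean, table of the gaining line over comparator tables, for all miRNAs with a scaled mean of at least 10, with coloured lines for the members and dotted lines at 0.6 and -0.6. MiR-1271-5p stood at 6.26 and 3.45, having reached the mean of 10 only through the tables with the gain, while the other members lay inside the bulk, whose place along the axis depends on the scaling (with no scaling the median in the HCT116 5/4 table moves by -0.69).

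Other miRNAs of chromosome 5 were set beside the members. Of 13 that were placed there, 5 could be compared in the HCT116 5/4 table. In the scaling used here 4 were higher past the limit and 0 lower, against 79 higher (35.7%) and 64 lower of 221 miRNAs of other chromosomes. Of the 5, miR-449b-5p and miR-378h reached the mean of 10 only through the table with the gain, so the count gives no support. The highest was miR-449b-5p, a miRNA with a role in multiciliated cells, at 2.47, and the lowest miR-378a-5p at 0.15. With the 5 members, 9 of the 10 placed miRNAs had ratios above 0, miR-581 being the exception, against 108 of 221 (48.9%) on other chromosomes. Among the 9, miR-1271-5p, miR-449b-5p and miR-378h were compared only because they were high there. The annotation step placed 436 of 509 names, so these counts may miss miRNAs of chromosome 5. MiR-145-5p and miR-146a-5p also belong to it but were not placed, and are in none of these counts. Their log2 ratios in the HCT116 5/4 table were 0.89 and -1.48.

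For the RPE1 5/3 12/3 table, 4 of the 13 could be compared and 1 was higher past the limit, against 33 of 183 (18.0%) on other chromosomes. The ratios ran from 1.06 for miR-143-5p to 0.01 for miR-378a-5p, with a median of 0.07. The miRNAs of other chromosomes had a median of -0.09. MiR-143-5p, the 1 past the limit, lay within its comparators, at a scaled mean of 63.3 against 8.56 and 108.2. With the members, 7 of 8 had ratios above 0, miR-584-5p being the exception, against 79 of 183 (43.2%) on other chromosomes. Among the 7, miR-1271-5p was compared only because it was high there.

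**Figure D3:**
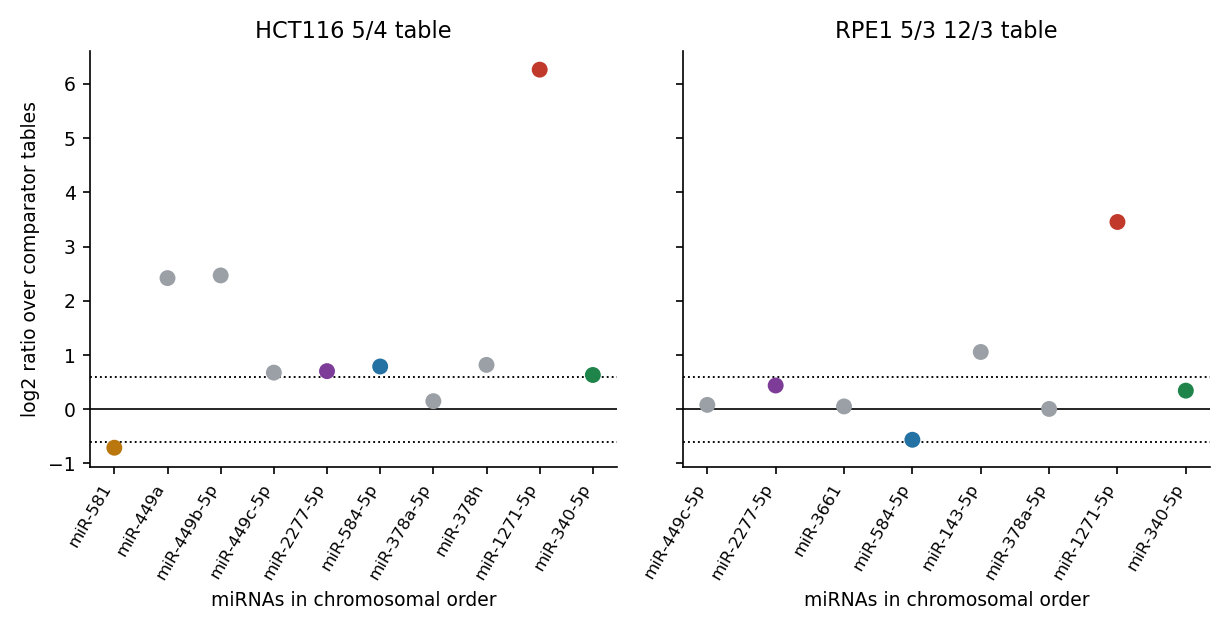
Log2 ratio over the comparator tables for the miRNAs placed on chromosome 5 that could be compared, 10 in the HCT116 5/4 table and 8 in the RPE1 5/3 12/3 table, in chromosomal order, with members coloured and dotted lines at 0.6 and -0.6. Of the miRNAs shown, all but miR-581 lay above 0 in HCT116 in the scaling used, and neighbours of miR-1271-5p on the axis did not share its ratio. MiR-145-5p and miR-146a-5p were not placed and are not shown.

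The seed partner of miR-1271-5p, miR-96-5p, is known for its role in the sensory cells of the inner ear. It was listed in all 7 tables, with means of 19312 in the HCT116 5/4 table and 15404, 13773 and 10958 in the HCT116 18/3 c2, HCT116* 3/3 c11 and HCT116* 8/3 c7 tables. In the RPE1 5/3 12/3, RPE1* 7/3 and RPE1* 21/3 tables it had means of 912.3, 1432 and 1001. MiR-96-5p was thus far more abundant in the HCT116 tables than in the RPE1 tables.

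The share of miR-1271-5p in the summed mean of the pair depended on the levels of both. It was 0.792% in the HCT116 5/4 table, 0.0213% in the HCT116 18/3 c2 table and 0.0263% in the HCT116* 8/3 c7 table. It was 8.07% in the RPE1 5/3 12/3 table and 0.684% in the RPE1* 21/3 table. The table with the highest mean of miR-1271-5p was thus not the one where it held the highest share of the pair.

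**Figure D4:**
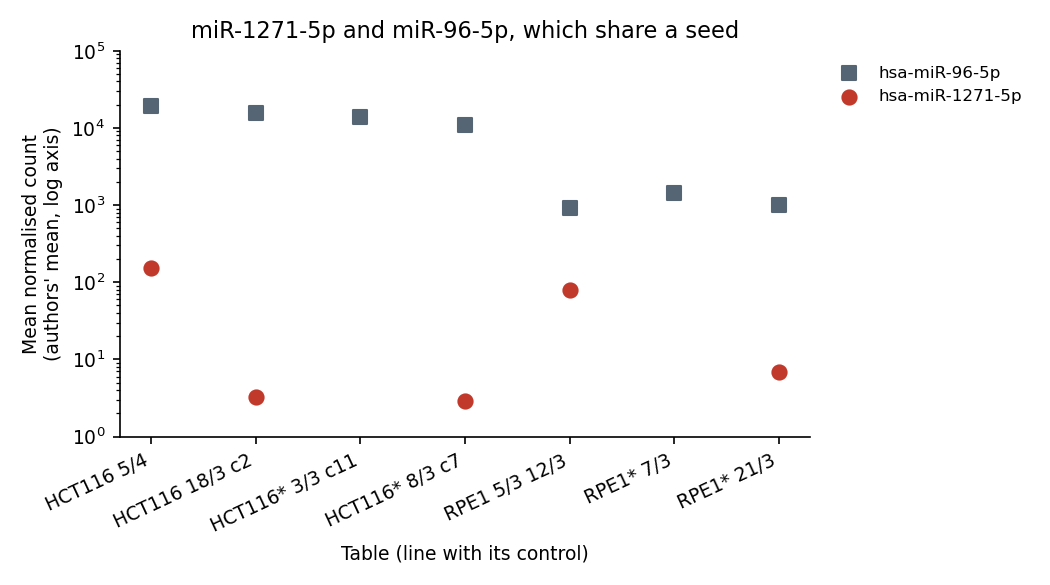
Mean normalised count (log axis) of miR-1271-5p and of miR-96-5p, which has the same bases 2 to 8, in each of the 7 tables, each point being the authors' mean over 6 libraries. MiR-96-5p was above miR-1271-5p in every table that lists both, by 125-fold in the HCT116 5/4 table and by 11.4-fold in the RPE1 5/3 12/3 table.

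By the labels HCT116* 3/3 c11 and HCT116* 8/3 c7 shared their controls, so a difference between their tables comes from the lines, if the controls have the same level in both after scaling. For miR-584-5p the mean in the HCT116* 3/3 c11 table was 1.34 times that in the HCT116* 8/3 c7 table. It was 1.49 times as deposited and 1.31 times as a share of the summed mean, and with shared controls the lines themselves differ by at least the ratio of their tables on a given scale. A scaled ratio this large in either direction was found for 40 of 273 miRNAs, 14.7%. For the same pair the scaled ratio was 0.865 for miR-340-5p, 0.986 for miR-2277-5p and 0.836 for miR-581. As deposited these 3 ratios were 0.961, 1.10 and 0.929, so that of miR-2277-5p changes direction with the scaling.

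Between the parental backgrounds, miR-584-5p and miR-581 were higher in the HCT116 tables than in the RPE1 tables under each of 3 scalings, with ranges that did not overlap. The share of all miRNAs with ranges that do not overlap was not counted, so this is not shown to be particular to them. The size depended on the scaling. For miR-584-5p it was 2.88-fold with scaling over all 7, 4.80-fold as deposited and 6.02-fold as a share of the summed mean. For miR-581, which only 2 RPE1 tables listed, both below a mean of 10 as deposited, it was 3.17-fold, 4.99-fold and 6.76-fold. MiR-340-5p was 1.08-fold higher with scaling over all 7, where the ranges overlapped, and 1.79-fold and 2.25-fold higher on the other scales, where they did not. MiR-2277-5p was likewise 1.34-fold higher with overlap, and 2.23-fold and 2.81-fold higher without. Of 173 miRNAs with a mean of at least 10 in all 7 tables, 83.2% had a lower log2 ratio of HCT116 over RPE1 than miR-584-5p. For miR-340-5p this share was 56.1% and for miR-2277-5p 65.3%, and these 3 shares were the same on all 3 scales. For miR-581 it was 87.9% with scaling over all 7 and 87.3% as deposited. With scaling over all 7, 31.8% of the 173 differed at least as much as miR-584-5p in either direction, and 26.0% as much as miR-581. The median log2 ratio of the 173 was -0.18 with scaling over all 7, 0.56 as deposited and 0.89 as a share of the summed mean. The ranges of miR-1271-5p overlapped on each of the 3 scales.

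Across the 7 tables, likeness of pattern was measured by Pearson's r of the log2 scaled mean, as a description, since the tables share controls and the backgrounds differ. MiR-584-5p was most like miR-500a-5p (r = 0.96), miR-7-5p (r = 0.92) and miR-10a-5p (r = 0.90) of 172 miRNAs compared. MiR-340-5p was most like miR-1287 (r = 0.97), miR-4454 (r = 0.92) and the member miR-2277-5p (r = 0.91). MiR-2277-5p was most like miR-324-5p (r = 0.98), miR-145-5p (r = 0.95) and miR-340-5p (r = 0.91). MiR-1271-5p and miR-581 were not listed in all tables and were left out of this.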

How the data were processed

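Per the study's methods, small RNA was sequenced (TruSeq small RNA, HiSeq2500), and the authors trimmed reads with cutadapt, quantified them on hg19 with mirdeep2 and miRBase and normalised and tested them with DESeq2, 1 line against its control at a time, with replicates paired for RPE1* 21/3 and for both lines with a chromosome 5 gain. The 7 deposited tables give for each miRNA a mean normalised count, a signal on the scale of counts divided by size factors, averaged by the authors over 6 libraries. The 5 other columns hold the authors' own comparison of line and control (fold change, its error, statistic, p-values) and were not used. The counts of single libraries were not used here, so the means carry no error and no test was run on them.

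Means were read from each table, scaled by the median of ratios within HCT116 and within RPE1, and compared as log2 ratios past 0.6 at a mean of at least 10 (Python 3.11.15, pandas 2.3.3, numpy 2.4.6). The calculation was tested on simulated data in which most miRNAs were unchanged. That setting does not cover the HCT116 5/4 table, where 63.8% of miRNAs lay past the limit. Alternatives were other scalings, the median of comparators, other limits and leaving out each comparator table. Of 509 names, 436 (85.7%) were placed on GRCh37 with GENCODE 44, and all 5 members matched the RefSeq sequence table. The members and lists were chosen with earlier results of these data known. Named miRNAs are the members, those sharing a seed, the nearest listed loci, the marker lists and the 3 most alike in pattern. Also named are the highest and lowest of those placed on chromosome 5, and miR-145-5p and miR-146a-5p, which were not placed. The study gives a nominal number of reads per library, but the depth that each library reached is unknown.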

Additional observations from a re-analysis of the deposited data

How the results depend on the processing

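MiR-1271-5p kept its direction and its place past the limit under each scaling run, and in HCT116 with each comparator table left out. Leaving out the HCT116* 3/3 c11 or the RPE1* 7/3 table, which do not list it, left its ratio as it was. In RPE1 only the RPE1* 21/3 table listed it among the comparators, so there is no ratio without that table. MiR-1271-5p reached the mean of 10 only through the tables with the gain. Its log2 ratio in the HCT116 5/4 table was 5.65 with no scaling and 6.09 to 6.44 when a comparator table was left out; in the RPE1 5/3 12/3 table it was 3.36 per 1000000, 3.54 with no scaling and 3.33 with scaling over all 7 tables. For the other members in the HCT116 5/4 table, no scaling gave 0.10 for miR-584-5p, -0.060 for miR-340-5p, a turn of direction, 0.011 for miR-2277-5p and -1.40 for miR-581. Scaling over all 7 tables gave 0.56, 0.41, 0.48 and -0.93 for these 4, and shares per 1000000 gave 0.51 for miR-340-5p and 0.58 for miR-2277-5p. These shifts apply to nearly all miRNAs of a table at once, by construction of the scaling. In the RPE1 5/3 12/3 table miR-584-5p ranged from -1.46 to 0.33 when a comparator table was left out, a turn of direction without the RPE1* 7/3 table, miR-340-5p from 0.020 to 0.67 and miR-2277-5p from 0.022 to 0.85, both past the limit without RPE1* 21/3, and miR-581 was -0.18 per 1000000, -0.48 with no scaling and -0.37 with scaling over all 7 tables. The count past the limit fell from 185 to 92 at a mean of at least 100 and to 117 at a limit of 1 in the HCT116 5/4 table, and from 104 to 52 and 47 in the RPE1 5/3 12/3 table, by fewer miRNAs or a stricter limit. Leaving out a comparator table gave 66 to 155 in the RPE1 5/3 12/3 table, the 66 without RPE1* 7/3, and 181 to 183 in the HCT116 5/4 table. With 1 or 2 comparator tables listing miR-1271-5p, at means of 2.88 to 6.89, the size of its ratio is uncertain. The comparisons of HCT116 with RPE1 tables and of HCT116* 3/3 c11 with HCT116* 8/3 c7 on other scales, and the place of miR-1271-5p with no filter, were added after seeing the data. No paired analysis was possible because the mean that was used pools the 6 libraries of a table.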
